A study of Mus musculus with 6 samples.

Results

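The genes described here are 9 mouse genes of sulfate removal, out of 26898 genes measured. They comprise the sulfatase-modifying factors Sumf1 and Sumf2, the extracellular sulfatases Sulf1 and Sulf2, and the lysosomal sulfatases Arsa, Arsb, Galns, Ids and Sgsh. The set was chosen on measured values, because Sumf1 was among the genes with the lowest KO to WT ratio and Sulf2 was higher in KO cells, and the others were added as members of the same families. The KO against WT values of these 9 genes are therefore given as a description, with no p-value. RNA was sequenced from primary mouse embryonic fibroblasts (MEFs, connective tissue cells taken from embryos) of strain C57BL/6 at passage 3. The 3 WT samples (WT 4, 5 and 8) carried the genotype Kansl1fl/fl, in which both copies of Kansl1 are flanked by recombination sites, and the 3 KO samples (KO 3, 7 and 10) carried Kansl1fl/fl/CAG-cre, which adds a Cre recombinase driven by the ubiquitous CAG promoter and activated by tamoxifen. Both groups had received tamoxifen at 1 μM for 48 h. No Cre-positive cells with an intact Kansl1 gene were analysed here, so loss of Kansl1 and presence of Cre cannot be told apart. Per the study's methods the cells came from embryos of each genotype (n = 3), and a figure caption of the study counts 3 mice per group.

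Sulfatases remove sulfate groups from glycosaminoglycans, the long sulfated sugar chains of proteoglycans, and from sulfated lipids and steroids. Each of them is made as an inactive protein. SUMF1, the formylglycine-generating enzyme of the endoplasmic reticulum (ER), oxidises a single cysteine in the catalytic site and so activates the enzyme, and inherited loss of SUMF1 in people leads to multiple sulfatase deficiency. Its paralog SUMF2 lacks this activity and can bind sulfatases. SULF1 and SULF2 act outside the cell on heparan sulfate and alter the binding of growth factors to it, whereas the lysosomal enzymes each remove a particular sulfate during breakdown of the chains.

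The feature that joins SUMF1 to its substrates can be read from the coding sequences. A cysteine, any residue, a proline, any residue and an arginine in this order mark the site that SUMF1 modifies. A search of the longest complete coding sequence of each gene (GENCODE M21, build GRCm38, the same assembly as mm10) found this order of codons in all 7 sulfatases and in neither Sumf1 nor Sumf2. The stretches are shown so that the shared site can be compared, coding strand, with the 5 codons of the motif in capitals.

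Sulf1: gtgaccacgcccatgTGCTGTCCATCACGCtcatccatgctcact
Sulf2: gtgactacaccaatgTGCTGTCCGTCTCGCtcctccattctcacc
Arsa: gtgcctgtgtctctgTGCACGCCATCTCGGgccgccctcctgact
Arsb: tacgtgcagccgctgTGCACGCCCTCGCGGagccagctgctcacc
Galns: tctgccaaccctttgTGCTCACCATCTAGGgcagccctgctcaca
Ids: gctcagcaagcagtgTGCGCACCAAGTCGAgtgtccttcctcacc
Sgsh: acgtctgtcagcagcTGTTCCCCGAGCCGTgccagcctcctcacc

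The cysteine is encoded by codon 87 of Sulf1 and codon 88 of Sulf2, and the 5 codons of the motif lie at chr1:12796852-12796866 and chr2:166117011-166117025. It is codon 92 of Arsb, with the motif at chr13:93772051-93772065, codon 86 of Ids, with the motif at chrX:70363131-70363145 and codon 70 of Sgsh, with the motif at chr11:119352673-119352687. In Arsa (codon 68, motif at chr15:89475362-89475521) and in Galns (codon 76, motif at chr8:122604209-122605149) an intron splits the motif. Arsb held a further match at codon 156. Global alignment of the coded proteins gave 67.3% identity between Sulf1 and Sulf2 (870 and 875 residues) and 51.4% between Sumf1 and Sumf2 (372 and 308 residues), over the aligned residues. Among the lysosomal sulfatases the closest pair was Arsa and Galns, with 42.0% identity.

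Expression was deposited as TPM, a read share corrected for the length of each gene, so levels of different genes can be compared per length. Whole reads recovered from these values amounted to 17655495 in KO 3 and 27718259 in KO 7, with the other samples between them. Kansl1 itself was at 28.5, 26.7 and 24.4 TPM in WT 4, 5 and 8 and at 13.7, 15.8 and 14.4 TPM in KO 3, 7 and 10, so every KO sample was below every WT sample. These levels sum all exons of the gene, those outside the deleted part included. The listed fibroblast markers summed to 10276 to 14856 TPM in WT and 11006 to 14443 TPM in KO samples. None of the 10 was past the thresholds used below, where 10.7% of all tested genes were (1 at an unadjusted limma p-value under 0.05, and 0 with voom). The 8 listed macrophage markers summed to 33.6 to 37.9 TPM in WT and 69.7 to 140.5 TPM in KO samples. Lyz2, which made up most of it, was called higher (log2 fold change 1.59, limma adjusted p-value 0.00142), and voom called 1 of the list. Adgre1, Csf1r and Cd68 had every KO sample above every WT sample, with log2 fold changes of 0.81, 0.83 and 0.85. Adgre1 passed the filter of 1 TPM only through the KO group, where it was higher, so its test is left out. Lyz2, Csf1r and Cd68 were higher at an unadjusted limma p-value under 0.05, and Cd14 (log2 fold change 0.08) was not. Ptprc, Itgam and Fcgr1 were at most 0.649 TPM in any sample. The epithelial markers summed to 40.4 to 45.8 TPM in WT and 49.4 to 66.5 TPM in KO samples, nearly all of it Krt18. The part of these markers in the results below was not tested. KO 7 expressed Xist at 117 TPM and had no Ddx3y, Uty, Kdm5d or Eif2s3y, whereas Xist was at most 0.0230 TPM in the other 5 samples.

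Among the members, the sulfatase activator stood furthest from WT. Sumf1 (ENSMUSG00000030101.15, chromosome 6 from 108107028 to 108185582, minus strand) was at 40.0, 39.7 and 35.6 TPM in WT 4, 5 and 8 and at 6.14, 7.79 and 8.59 TPM in KO 3, 7 and 10. The highest KO sample was far below the lowest WT sample. WT averaged 38.4 ± 2.46 TPM (SD, n = 3) and KO 7.504 ± 1.25 TPM (SD, n = 3), or 19.5% of WT, with a log2 fold change of -2.22 (SE 0.13) on the log2(TPM + 1) scale. Only 7 of the 14799 tested genes had a lower log2 fold change. The values rested on 1104 to 1184 reads in WT and 152 to 261 reads in KO samples, and exons of Sumf1 shared no base with another annotated gene.

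The paralog behaved otherwise in size. Sumf2 (ENSMUSG00000025538.15, chromosome 5 from 129846986 to 129864050, plus strand) was at 21.3, 20.7 and 18.5 TPM in the WT samples and at 16.0, 16.1 and 16.9 TPM in the KO samples. The groups did not overlap, but the gap between them was small beside that of Sumf1. KO cells held 81.0% of the WT mean, and the log2 fold change of -0.29 (SE 0.10) was not past the thresholds. The ratio of Sumf1 to Sumf2 within each sample, which does not depend on how samples are scaled, was 1.88, 1.91 and 1.93 in WT 4, 5 and 8, against 0.383, 0.485 and 0.508 in KO 3, 7 and 10. In WT cells Sumf1 was thus the more abundant of the pair in every sample, and in KO cells Sumf2 was. Of the exon bases of Sumf2, 630 also belong to Phkg1 on the opposite strand, which reached at most 0.275 TPM.

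**Figure D1:**
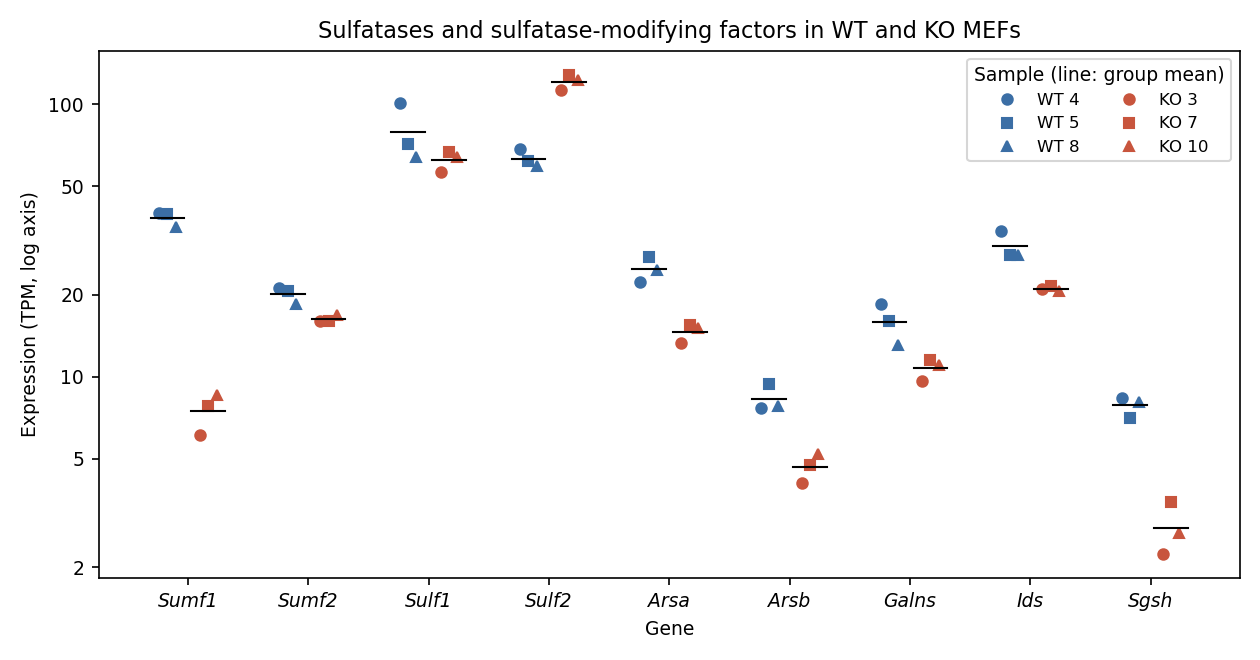
Expression of the 9 genes in each sample, in TPM on a log axis; blue symbols are WT samples, red symbols are KO samples and black lines are group means (n = 3 each). Sumf1 falls from 38.4 to 7.504 TPM on average, Sulf2 rises from 63.2 to 121 TPM, and the groups overlap for Sulf1 alone.

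The extracellular pair moved apart. Sulf2 (ENSMUSG00000006800.14, chromosome 2 from 166073089 to 166155663, minus strand) was at 68.3, 61.9 and 59.5 TPM in WT 4, 5 and 8 and at 113, 128 and 122 TPM in KO 3, 7 and 10. All KO samples lay above all WT samples. WT averaged 63.2 ± 4.59 TPM (SD, n = 3) and KO 121 ± 7.99 TPM (SD, n = 3), or 192% of WT, with a log2 fold change of 0.93 (SE 0.10), and 282 tested genes had a higher one. Sulf1 (ENSMUSG00000016918.15, chromosome 1 from 12692277 to 12861192, plus strand) was at 101, 71.3 and 64.3 TPM in WT and at 56.6, 67.1 and 64.0 TPM in KO samples. The groups overlapped, and WT 4 enlarged the gap between the means; the log2 fold change was -0.31 (SE 0.16) with all samples and -0.12 without WT 4. The Sulf1 values rested on 4649 to 9244 reads per sample. Of the exon bases of Sulf2, 154 overlap the opposite-strand gene Ncoa3, which was at 14.9 to 15.4 TPM in WT and 16.3 to 20.5 TPM in KO samples.

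Within samples, the ratio of Sulf2 to Sulf1 was 0.677, 0.867 and 0.924 in WT 4, 5 and 8, against 1.99, 1.92 and 1.92 in KO 3, 7 and 10. Sulf1 was the more abundant in each WT sample and Sulf2 in each KO sample. Sulf2 made up 44.9% ± 4.05 (SD, n = 3) of the summed TPM of the pair in WT and 66.0% ± 0.498 (SD, n = 3) in KO cells. The sum itself was 124 to 169.3 TPM in WT and 169.3 to 196 TPM in KO samples, so the groups met at their edges for the sum although they were well apart for the share.

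The 5 lysosomal sulfatases were lower in every KO sample than in any WT sample. Sgsh, which removes the sulfate on the nitrogen of glucosamine in heparan sulfate (ENSMUSG00000005043.13, chromosome 11 from 119343425 to 119355536, minus strand), was at 8.39, 7.08 and 8.12 TPM in WT 4, 5 and 8 and at 2.24, 3.48 and 2.66 TPM in KO 3, 7 and 10. It had the lowest KO share of the 5, at 35.6% of the WT mean, and its log2 fold change was -1.23 (SE 0.16). It was also the least counted, with 274 to 340 reads in WT and 72 to 149 reads in KO samples. On the opposite strand, Card14 shares 955 exon bases with Sgsh, but was at no more than 0.206 TPM.

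Arsa, which acts on sulfatide, a myelin lipid (ENSMUSG00000022620.14, chromosome 15 from 89472476 to 89477425, minus strand), was at 22.3, 27.5 and 24.6 TPM in WT and at 13.4, 15.5 and 15.1 TPM in KO samples. The log2 fold change was -0.72 (SE 0.12), with 59.1% of the WT mean left in KO cells. Arsb, which acts on dermatan and chondroitin sulfate (ENSMUSG00000042082.7, chromosome 13 from 93771630 to 93943016, plus strand), was at 7.69, 9.43 and 7.79 TPM in WT and at 4.08, 4.74 and 5.23 TPM in KO samples. Its log2 fold change was nearly the same, at -0.71 (SE 0.14), and KO cells held 56.4% of the WT mean. Both genes overlap antisense transcripts, Arsa over 690 exon bases with C230037L18Rik (at most 0.673 TPM) and Arsb over 463 with Gm47210 (at most 0.331 TPM) and 1948 with Gm26527, whose level was not analysed here. The library kit named in the methods does not mark strand, so reads from such partners could not be separated.

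The remaining pair showed smaller differences. Ids, which removes sulfate from iduronate in heparan and dermatan sulfate (ENSMUSG00000035847.15, chromosome X from 70343069 to 70365084, minus strand), was at 34.4, 28.1 and 28.1 TPM in WT and at 21.0, 21.6 and 20.7 TPM in KO samples. KO 7, the sample with Xist, was close to the other KO samples for this X-linked gene. Galns, which acts on keratan and chondroitin sulfate (ENSMUSG00000015027.11, chromosome 8 from 122578242 to 122611463, minus strand), was at 18.4, 16.1 and 13.1 TPM in WT and at 9.70, 11.5 and 11.03 TPM in KO samples. WT 8 was only a little above KO 7 for Galns. The log2 fold changes were -0.49 (SE 0.11) for Ids and -0.51 (SE 0.14) for Galns, with 69.9% and 67.9% of the WT mean in KO cells. Together the 5 lysosomal sulfatases reached 91.2, 88.2 and 81.7 TPM in WT 4, 5 and 8, against 50.4, 56.8 and 54.7 TPM in KO 3, 7 and 10.

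**Figure D2:**
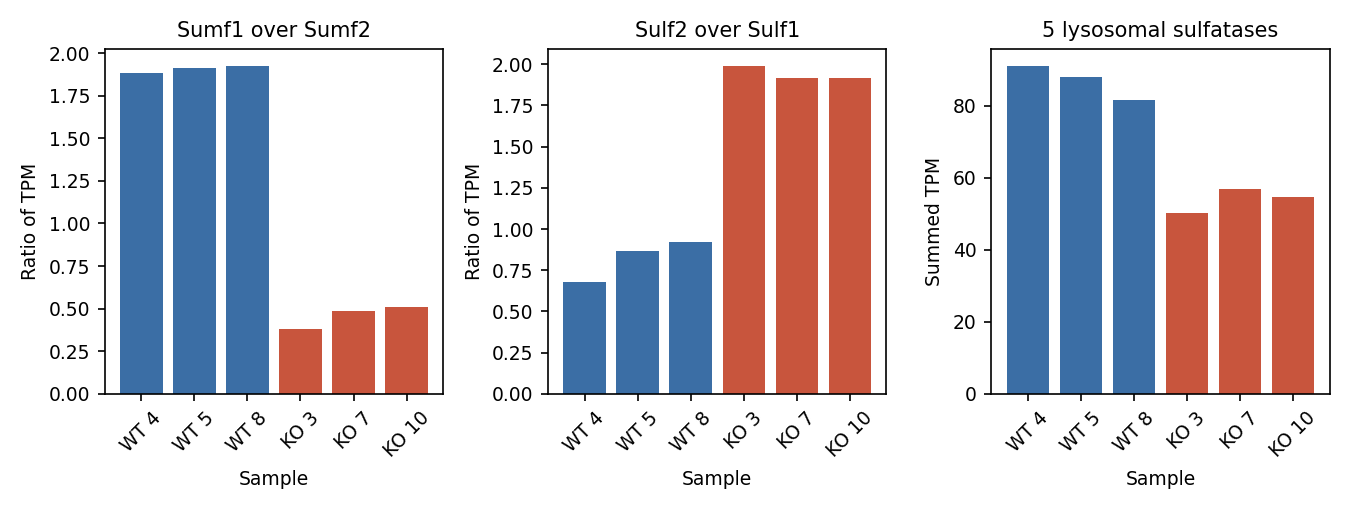
Within-sample quantities for WT (blue) and KO (red) samples: the ratio of Sumf1 to Sumf2 TPM, the ratio of Sulf2 to Sulf1 TPM, and the summed TPM of Arsa, Arsb, Galns, Ids and Sgsh; each bar is 1 sample. The first ratio goes from 1.88 to 1.93 in WT down to 0.383 to 0.508 in KO, the second from 0.677 to 0.924 up to 1.92 to 1.99, and the sum from 81.7 to 91.2 TPM down to 50.4 to 56.8 TPM.

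The order of levels changed accordingly. In WT cells it ran from Sulf1 (78.9 TPM) through Sulf2, Sumf1, Ids, Arsa, Sumf2, Galns and Arsb to Sgsh (7.86 TPM), and only the neighbours Sulf1 and Sulf2 and the neighbours Arsb and Sgsh had overlapping sample values. Sumf1 was the third there. In KO cells the order was Sulf2, Sulf1, Ids, Sumf2, Arsa, Galns, Sumf1, Arsb and Sgsh, with no overlap between neighbours, and Sumf1 was the seventh. Sumf1 mean TPM lay above 78.1% of tested genes in WT and above 43.5% in KO cells. Set against the summed TPM of the 7 sulfatases, Sumf1 amounted to 16.9% ± 1.34 (SD, n = 3) in WT and 3.15% ± 0.387 (SD, n = 3) in KO cells.

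Genes were called changed at the thresholds that the study used, an adjusted p-value (limma, Benjamini-Hochberg over 14799 genes) below 0.005 together with an absolute log2 fold change above 0.5. All 9 members passed the expression filter of 1 TPM in a group mean. Of them, 4 were called lower (Sumf1, Sgsh, Arsa and Arsb), where 9.03% of all tested genes were, and 1 was called higher (Sulf2), where 1.64% were; in either direction 10.7% of tested genes were called. In 7 members all KO samples were below all WT samples, against 29.9% of tested genes, and in 1 all were above, against 13.3%. Because the set was chosen with these values known, the counts describe it and show no more. The median log2 fold change was -0.51 over the 9 members and -0.71 over the 5 lysosomal sulfatases, beside -0.07 over all tested genes. Ids and Galns, called in neither direction, lay on either side of the fold threshold; Galns was past it and missed the adjusted p-value, and with voom it was called lower. Fewer cells expressing a gene and less RNA per cell cannot be told apart in these bulk samples.

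The calls differed in how well they held when samples were left out. Sumf1, Sgsh and Sulf2 were past the thresholds in all 6 fits that each omitted 1 sample, with log2 fold changes from -2.31 to -2.10, from -1.36 to -1.13 and from 0.89 to 0.99. Arsa was past them only in the fit without WT 4, and its log2 fold change stayed between -0.79 and -0.64. Arsb was past them in none of the 6, at -0.78 to -0.63, nor in the fit without a variance trend. Testing every gene of the table, with no filter, left Sumf1 and Sulf2 alone past the thresholds. No member changed sign in any setting.

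**Figure D3:**
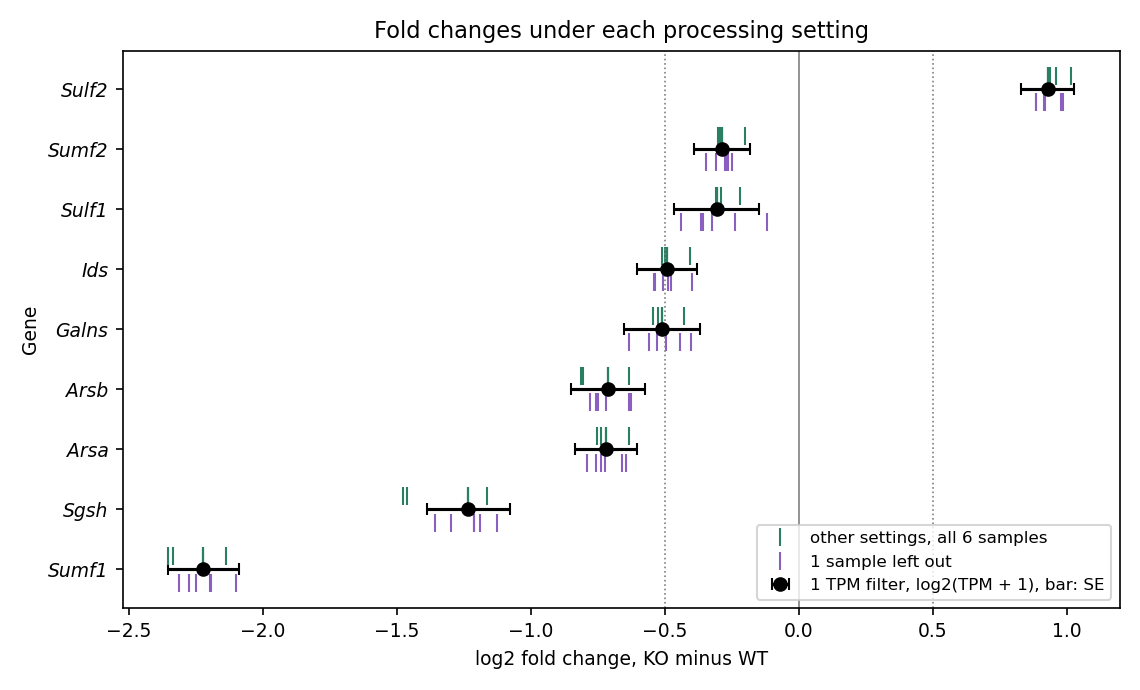
Log2 fold change of each gene, KO minus WT, with its SE (black points and bars); green ticks are other processing settings with all 6 samples, purple ticks are fits without 1 sample, and dotted lines mark 0.5 and -0.5. Sumf1, at -2.22, stands apart from the others; Sulf1 moves to -0.12 in a single fit, and no tick crosses zero.

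To see whether other genes of the pathway differed likewise, lists of related genes were compared. Among the other sulfatases, Arsk (lysosomal, acting on glucuronate in heparan sulfate) fell from 4.79, 4.10 and 3.97 TPM in WT 4, 5 and 8 to 1.40, 1.79 and 1.995 TPM in KO 3, 7 and 10. Arsk thus differed by -0.96 (SE 0.16) on the log2 scale, at a limma adjusted p-value of 0.00228. Without any single sample other than KO 10 the adjusted p-value of Arsk was above 0.005, reaching at most 0.00794, with log2 fold changes of -1.03 to -0.87. Arsj (log2 fold change -0.32, limma adjusted p-value 0.180) did not pass the thresholds, Arsg, at 1.20 to 1.57 TPM in WT and 0.598 to 0.846 TPM in KO samples, passed the filter only through the WT group, and Arsi, at 0.277 to 1.42 TPM, was under the filter.

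Of the ER proteins known to bind SUMF1, Erp44, which retains proteins in the early secretory pathway, fell from 62.6 to 67.1 TPM in WT to 36.8 to 45.5 TPM in KO samples. The difference was -0.63 on the log2 scale (SE 0.11) at a limma adjusted p-value of 0.00260, and it was lost from the calls in each fit without 1 sample, where the adjusted p-value was 0.00505 to 0.0119. P4hb, a protein disulfide isomerase, was at 1096 to 1202 TPM in WT and 1238 to 1400.5 TPM in KO samples (log2 fold change 0.23, limma adjusted p-value 0.112). Lman1, a cargo receptor between ER and Golgi, was at 70.7 to 80.8 TPM in WT and 54.5 to 69.7 TPM in KO samples (-0.25, limma adjusted p-value 0.135).

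The enzymes that work beside the sulfatases in the lysosome did not show calls. Of 10 tested glycosaminoglycan hydrolases, limma called 0, where 10.7% of all tested genes were called, so 0 calls among 10 genes lies near that share. An unadjusted limma p-value under 0.05 was reached by 2 lower and 1 higher gene, and voom called 1 lower. Their median log2 fold change was -0.11, close to the -0.07 of all tested genes. The voom call was Naglu, which removes N-acetylglucosamine from heparan sulfate, at 18.9, 22.9 and 20.5 TPM in WT 4, 5 and 8, against 13.1, 16.2 and 13.0 TPM in KO 3, 7 and 10 (log2 fold change -0.53, limma adjusted p-value 0.0126). Glb1, Gusb and Hexa, with log2 fold changes of -0.04, -0.09 and 0.13, had overlapping groups. The difference between these hydrolases and the lysosomal sulfatases was not tested, since the sulfatases were chosen with their values known.

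Genes of substrate synthesis were compared next. Ext2, a subunit of the polymerase that extends heparan sulfate, fell from 50.9, 50.8 and 49.7 TPM in WT 4, 5 and 8 to 22.8, 27.2 and 25.5 TPM in KO 3, 7 and 10, with a log2 fold change of -0.98 (SE 0.10) at limma's adjusted p-value of 0.000318. It was the only call among 15 tested genes of heparan sulfate chain synthesis and sulfation, where 9.03% of all tested genes were called lower. Ext2 held its call in all 6 fits without 1 sample. Its partner subunit Ext1 was at 67.2 to 75.7 TPM in WT and 65.1 to 77.2 TPM in KO samples. Xylt2, which attaches the first sugar of the chain to the core protein, fell from 14.5 to 15.7 TPM in WT to 7.01 to 10.4 TPM in KO samples, with a log2 fold change of -0.74 (SE 0.14) at limma's adjusted p-value of 0.00455. Xylt2 was the only call among 7 genes of linker synthesis, where 9.03% of all tested genes were called lower, and was kept only in the fit without KO 7, where the adjusted p-value was 0.00373 against at most 0.0168 in the other fits.

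With 10.7% of all tested genes called, limma made 0 calls in 4 more lists. They were chondroitin and dermatan sulfate synthesis (14 tested, 3 lower and 3 higher at an unadjusted p-value under 0.05), sulfate donor supply (6 tested, 1 and 1), heparan sulfate core proteins (11 tested, 0 and 3) and sulfatide metabolism (2 tested, 0 and 1). With voom the core proteins gained Gpc6 as a higher gene, and the other 3 lists gained none. Their median log2 fold changes were -0.02, -0.04, 0.18 and 0.19. Over all 9 lists, 4 of 72 tested genes were called lower (5.56%, beside 9.03% of all tested genes) and 0 higher (beside 1.64%). At an unadjusted limma p-value under 0.05, 15 were lower and 13 higher. These tallies hold Arsg among the lower and Hs3st1 among the higher genes. Both passed the filter only through the group where they were higher, so they add no support to the tallies. With voom 7 were called lower and 1 higher. The median of the 72 was 0.00.

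**Figure D4:**
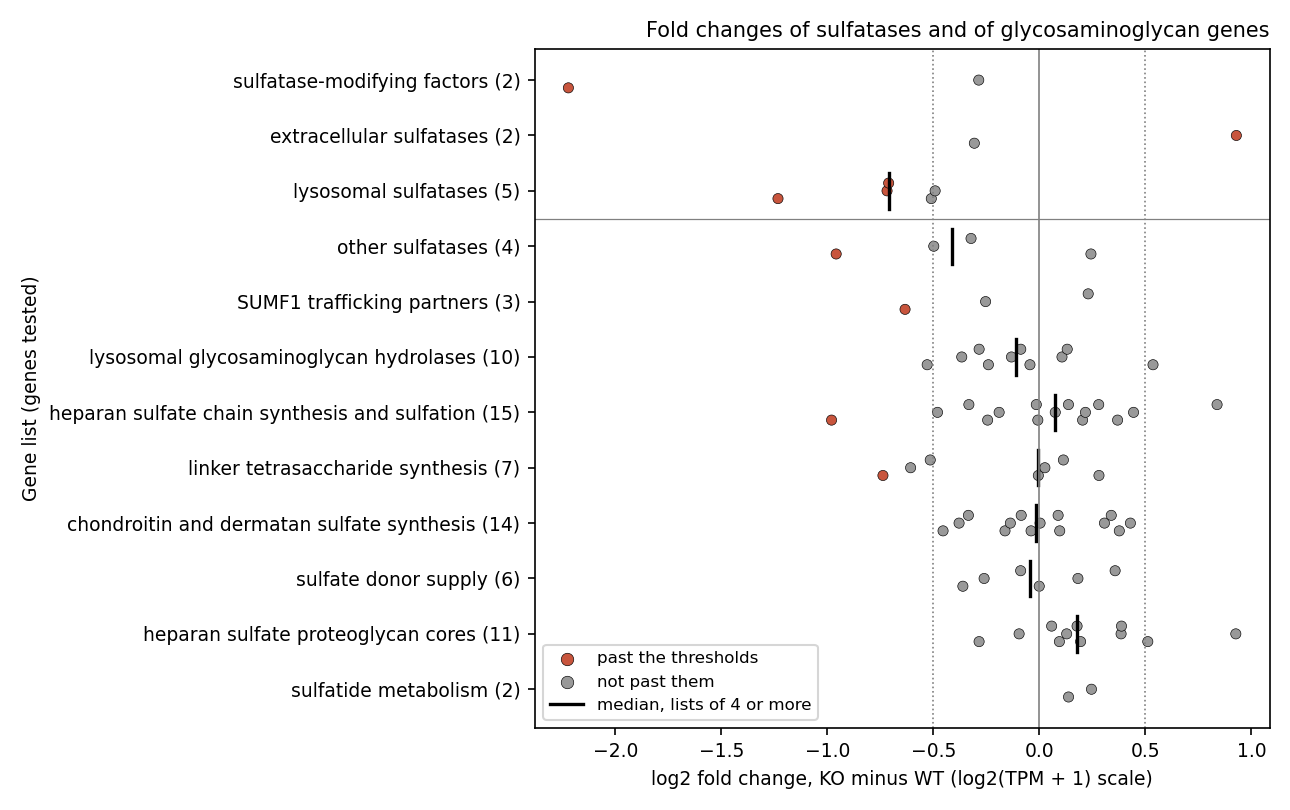
Log2 fold changes, KO minus WT, of the 9 members (above the grey line) and of 9 lists of related genes (below it); each point is a gene, red where past the thresholds, black bars are medians of lists with 4 or more genes, and dotted lines mark 0.5 and -0.5. The 5 lysosomal sulfatases lie at or beyond -0.49, while the 10 other glycosaminoglycan hydrolases have a median of -0.11 and no red point. Of all tested genes, 10.7% were past the thresholds.

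Genes beside Sumf1 on chromosome 6 were examined because position had not entered the choice. Setmar, which ends 29905 bp from Sumf1, was at 3.11 to 4.06 TPM in WT and 1.25 to 2.46 TPM in KO samples, on 16 to 58 reads. The samples did not overlap, but the log2 fold change of -0.65 (SE 0.20) had a limma adjusted p-value of 0.0346. Itpr1, 27513 bp away on the other side, had a log2 fold change of -0.24 (limma adjusted p-value 0.295). The next genes out, Lrrn1 and Bhlhe40, had log2 fold changes of 0.07 and -0.24 (limma adjusted p-values 0.850 and 0.316), and their groups overlapped. None of these 4 neighbours passed the thresholds.

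Promoter sequence was available for 7 members in a RefSeq table (build GRCm38.p6) that spans 250 bases before to 50 after each start site. The letters CACGTG, the core of the site bound by the lysosomal regulators of the MiT/TFE family and the same on both strands, were searched after these sequences had been read. They occurred in 8.09% of the 27025 genes in the table (7.15% of its 32851 promoters) and in 3 of the 7 members, Sumf1, Sgsh and Arsa. They did not occur in the windows of Sumf2, Sulf2, Arsb or Ids. A match is a description of the letters and says nothing of binding. The bases around each match are shown up to the start site in the RefSeq table, in the direction of transcription, with the match in capitals. For Sgsh this start site differs from that of the GENCODE gene, which begins at 119355536 on the minus strand. Part of the Sgsh window and of its match therefore lies within the gene as placed above.

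Sumf1 (chr6:108185584-108185624, minus strand, match from base -11): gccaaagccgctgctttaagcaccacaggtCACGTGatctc
Sgsh (chr11:119355511-119355569, minus strand, match from base -29): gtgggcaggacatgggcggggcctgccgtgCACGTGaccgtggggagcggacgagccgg
Arsa (chr15:89477425-89477470, minus strand, match from base -16): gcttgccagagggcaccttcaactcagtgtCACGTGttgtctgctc

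To place the 2 members that led to the choice among all genes, likeness was measured as the root mean square difference of log2(TPM + 1) over the 6 samples, each gene centred on its WT mean, among 9972 other genes whose mean reached 5 TPM. The genes most like Sumf1 were Zc4h2 (0.17), Arpin (0.17), Nipsnap1 (0.17), Plgrkt (0.18) and Mzt2 (0.21), and none of them encodes a sulfatase. Zc4h2 averaged 10.02 ± 1.43 TPM (SD, n = 3) in WT cells, against 1.41 ± 0.180 TPM (SD, n = 3) in KO cells. The genes most like Sulf2 had differences of 0.07 for Pik3r3, Abhd4 and Gxylt2 and 0.09 for Arap2 and Cdkn1a. With each gene centred on its WT mean, this measure mostly follows the KO against WT difference that led to the choice. Only 7 tested genes had a lower log2 fold change than Sumf1, whereas 282 had a higher one than Sulf2. The smaller differences for Sulf2 are therefore no separate result. Cdkn1a, an inhibitor of cell cycle kinases, averaged 267 ± 32.3 TPM (SD, n = 3) in WT cells, against 469 ± 18.9 TPM (SD, n = 3).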

How the data were processed

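Per the study's methods, libraries were made from 2 μg RNA with a kit that does not mark strand, and reads were aligned to mm10 with STAR; the submitters' processing notes also name Bowtie 0.12.2. The counting program is not given in the sources used here. The authors deposited TPM per gene and sample. The table's 2 columns of the authors' own comparison, a fold change and an adjusted p-value, were not used. All 26898 gene identifiers matched GENCODE M21.

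Groups were taken from the sample titles. Genes whose mean reached 1 TPM in WT or KO cells were compared on the log2(TPM + 1) scale by limma 3.58.1 in R 4.3.3, with a trended variance and no covariate, so fold changes of weakly expressed genes are understated. TPM multiplied by merged exon length gave whole multiples of a fixed step in every sample (100.0% of values at a tolerance of 0.05). The reads so recovered describe depth and entered only the voom alternative, which used total reads as library sizes. Alternatives were a pseudocount of 0.1 TPM, no filter, a mean of at least 5 TPM, no variance trend, median-of-ratios scaling, voom, an adjusted p-value of 0.05, and omission of each sample. The main fit used TPM because that is the deposited unit, and beyond voom no model was fitted to the recovered reads.

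The members and lists were chosen with earlier results of these data known. Named genes are all members, Kansl1, the other sulfatases, SUMF1 partners, Sumf1 neighbours, all called genes of each list, and the 5 genes most like Sumf1 and Sulf2; the macrophage markers, Naglu, Ext1, Gpc6, Glb1, Gusb, Hexa and the genes of the closing section fall outside this rule and were chosen after their values were seen. An item of the lists is not reported here. Proteins were aligned with Biopython 1.88.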

Additional observations from a re-analysis of the deposited data

How the results depend on the processing

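No paired analysis was possible because no replicate number occurs in both groups. Of 108 member fold changes under other settings, none changed sign and 105 moved by less than the spread within groups. For most settings the latter was fixed in advance. No filter, a mean of at least 5 TPM and no variance trend leave every member fold change as it was. Omission of 1 of 3 samples cannot move a fold change by as much as this spread. Only the other pseudocount, median-of-ratios scaling and voom could do so. The 3 values that moved further were Sumf2 with median-of-ratios scaling (-0.20) and Sgsh with a pseudocount of 0.1 TPM (-1.48) and voom (-1.46). Median-of-ratios scaling brought the median of all tested genes from -0.07 to 0.01. The causes of the shifts below were not tested, except that omission of a sample leaves fewer samples.

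With no filter, 341 genes were called (286 lower, 55 higher), among them 2 members, 0 other sulfatases, 0 SUMF1 partners and 0 linker genes. With voom 2585 genes were called (2152 lower, 433 higher), among them 1 hydrolase, 3 linker genes and 1 core protein. At an adjusted p-value under 0.05 the counts were 3147 genes (2453 lower, 694 higher), 2 hydrolases, 2 heparan sulfate synthesis genes, 3 linker genes and 2 core proteins. The heparan sulfate synthesis genes were Ext2 and Hs3st1, and Hs3st1 passed the filter only through the KO group, where it was higher. Median-of-ratios scaling gave 442 higher genes, 1 chondroitin sulfate synthesis gene (Chpf2) and 1 core protein (Gpc6). A mean of at least 5 TPM gave 0 other sulfatases, since it left Arsk untested, 1 hydrolase, 2 linker genes and 2 core proteins, and no variance trend gave 0 SUMF1 partners and 0 linker genes. Omission of 1 sample gave 758 to 1081 genes (617 to 938 lower, 84 to 252 higher), 3 to 4 members, 0 to 1 other sulfatases, 0 SUMF1 partners and 0 to 1 linker genes. Among the 9 members, Sgsh had the fewest reads, 72 in KO 3.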

Other observations

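WT 4, the highest WT sample for Sulf1, was the lowest WT sample for the collagen genes Col1a1, Col3a1 and Col18a1, which were picked after their values were seen. Sulf1 was at 101 TPM in WT 4 and at 71.3 and 64.3 TPM in WT 5 and 8. Col1a1, the main fibrillar collagen chain, was at 3080 TPM in WT 4 and at 5805 and 4958 TPM in WT 5 and 8, and Col3a1 was at 164 TPM in WT 4 and at 400.5 and 333 TPM. In the KO samples Col1a1 was at 4195 to 5809 TPM. Col18a1, a heparan sulfate core protein of basement membranes, was at 23.4, 40.7 and 33.7 TPM in WT 4, 5 and 8 and at 38.6, 84.6 and 70.3 TPM in KO 3, 7 and 10, where KO 3 overlapped the WT samples (log2 fold change 0.93, limma adjusted p-value 0.0338).

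Hs3st1, which adds a rare sulfate to heparan sulfate, was at 0.719 to 0.920 TPM in WT and 1.62 to 2.71 TPM in KO samples on 13 to 54 reads. It passed the filter of 1 TPM only through the KO group, where it was higher, so its p-value is not given. The list counts above at an unadjusted or adjusted limma p-value under 0.05 do include Hs3st1. Hyal1, a lysosomal hyaluronidase, was at 1.42 to 2.23 TPM in WT and 2.91 to 2.995 TPM in KO samples (log2 fold change 0.54, limma adjusted p-value 0.0413).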
